A study of Arabidopsis thaliana with 10 samples.

Results

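The comparison described here set leaf material of C24 seedlings, a natural accession of Arabidopsis thaliana, held at 4 °C for 3 h against C24 seedlings kept at room temperature. Its members were the 2 arrays titled as C24 at 3 h and the 2 titled as C24 at room temperature, 4 of the 10 arrays of the series. The labels name no transgene or mutation, and the seedlings grew on half-strength MS plates at 23 and 18 °C. The sample labels give leaf and an age of 20 days, and the series text, which gives 14 days, speaks of biological replicates. The other arrays were C24 after 24 h of cold, Col at room temperature and Col after 24 h of cold, 2 each, with no Col arrays at 3 h. Values are deposited signals on the log2 scale, so that a difference of 1 is a 2-fold change. With 2 arrays a group, precision is limited by their number, and the median SE of the change at 3 h was 0.0878.

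Plants sense a drop in temperature within minutes, through calcium influx and kinases, and switch on transcription factors of the AP2/ERF class, of which the CBF factors are the best known. These bind the promoters of COR, LEA and dehydrin genes, whose hydrophilic products protect membranes and proteins when cells dry or freeze. The response comes in waves, with regulators first and protective proteins and metabolic enzymes later, and its size depends on the time of day because the circadian clock gates it. The CBF genes themselves were not analysed here.

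The room temperature arrays of C24 stood apart. The root mean square difference of group means over all probe sets was 0.567 between 3 h and room temperature in C24, and 0.761 between C24 and Col, both at room temperature. The 3 h arrays lay nearer to Col at room temperature, at 0.629. A call at 3 h can therefore rest on the C24 room temperature arrays, and the values in Col at room temperature are given beside the results. Ecotype and treatment cannot be told apart in that second comparison. The arrays also differed by ecotype in a technical measure: the mean log2 signal of the poly-A control probe sets was 5.53 to 5.57 on the 4 Col arrays and 6.53 to 6.83 on the 6 C24 arrays, with 6.83 and 6.80 at room temperature and 6.66 and 6.65 at 3 h. Its part in the differences from Col was not tested. Comparisons with Col share arrays with the change at 3 h, so counts of called genes above or below Col are descriptions.

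The leaf label was checked against marker genes. RCA, which activates Rubisco, read 14.06 and 14.06 at room temperature and 14.07 and 13.99 at 3 h, and the summed signal of 4 leaf markers lay at a log2 level of 15.65 and 15.63 against 15.52 and 15.48. Root markers were present too: PYK10, a beta-glucosidase of roots, EXPA7 and EXPA18, expansins of root hairs, all rose at 3 h. Their summed signal, almost wholly that of PYK10, was 10.65 and 10.68 at room temperature, 12.54 and 12.57 at 3 h, and 12.75 and 12.97 in Col at room temperature. EXPA7 and EXPA18 rose by only 0.61 and 0.66, and the call of EXPA7 was lost without the first room temperature or the second 3 h array. Against Col at room temperature, PYK10 at 3 h differed by -0.28, EXPA7 by -1.14 and EXPA18 by -1.38. None of these 3 root markers passed Col: all stayed below it at 3 h. The 2 flower and pollen markers measured, AMS and SPL, did not change, and the seed gene PAP85 rose by 0.61 from 4.66 and 4.47 to 5.16 and 5.18. In these bulk samples more cells of a type and more RNA per cell cannot be told apart, and the part of root tissue in the results below was not tested.

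**Figure D1:**
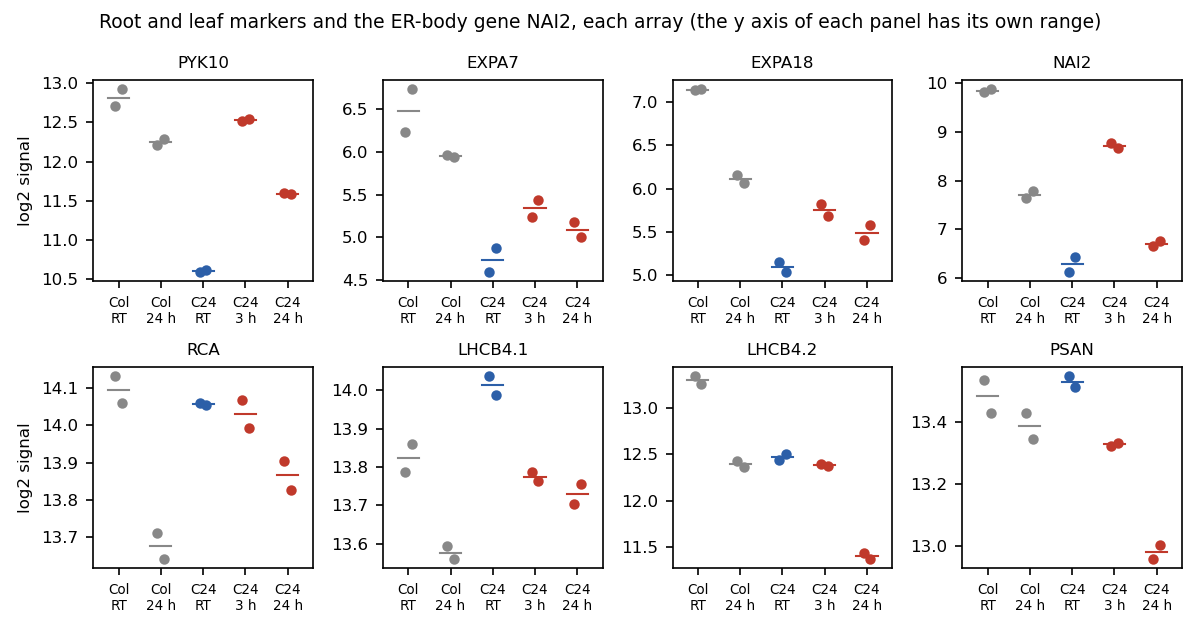
Log2 signal (y axis, a separate range in each panel) of 3 root markers, the ER-body gene NAI2 and 4 leaf markers in the 5 groups (x axis), with a point per array and a line at the group mean. RCA lies between 13.99 and 14.07 on the C24 arrays at room temperature and 3 h, whereas PYK10 reads 10.6 in C24 at room temperature and 12.5 at 3 h.

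The change at 3 h was broad. Of 22746 probe sets, 10390 passed an adjusted p of 0.05, which is 45.7% of those tested: 5120 rose (22.5%) and 5270 fell (23.2%). Large changes leaned to rises, with 1034 probe sets at least 2-fold higher (4.55%) and 583 at least 2-fold lower (2.56%), and with 243 against 71 beyond 4-fold. The median change of all probe sets was -0.04. The smallest change that was called was 0.17, so a call by itself says little of size. When the 3 h arrays also had to differ from untreated Col, with the same sign, 4142 calls were left, of which 535 were at least 2-fold higher and 289 at least 2-fold lower.

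Replicates lay close: the median SD per probe set was 0.0638 at room temperature and 0.0602 at 3 h. Of the probe sets that rose at least 2-fold, 96 (9.28%) had a room temperature signal below the lower quartile of both arrays, called the background range here, so that their folds are measured from near the floor of the array. Among the 2-fold falls, 15 (2.57%) ended in that range.

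**Figure D2:**
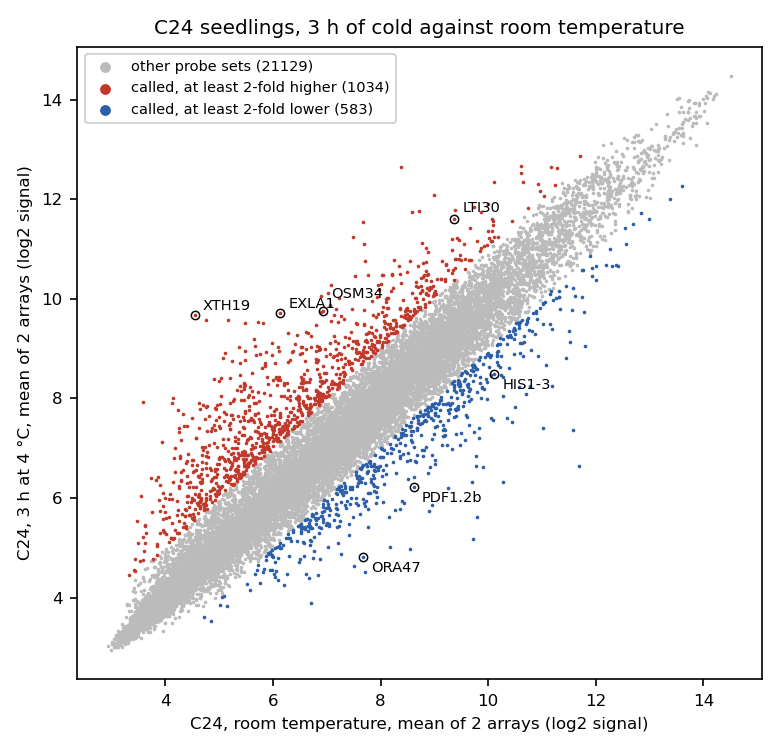
Mean log2 signal of each of 22746 probe sets in C24 at room temperature (x axis) and after 3 h at 4 °C (y axis), 2 arrays each. Red points are the 1034 probe sets called at least 2-fold higher, blue points the 583 called at least 2-fold lower, and circles mark 7 genes named in the text.

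The largest rise of any named gene was that of XTH19, a xyloglucan endotransglucosylase/hydrolase, an enzyme that cuts and rejoins the xyloglucan chains of the cell wall. Its signal was 4.36 and 4.74 at room temperature and 9.75 and 9.60 at 3 h, a 34.9-fold increase (log2 change 5.12, SE 0.11, adjusted p = 1.26e-10). The lower quartile of both room temperature arrays was 4.51, so this fold too is measured from near the floor. EXLA1, an expansin-like wall protein, went from 6.18 and 6.10 to 9.70 and 9.74, 12-fold higher (3.58, SE 0.07, adjusted p = 1.04e-10). For both genes all arrays at 3 h lay far above all arrays at room temperature. They differed in the reference ecotype: XTH19 stood at 8.69 in Col at room temperature, well above the C24 controls, whereas EXLA1 stood at 5.95, near them.

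The other 13 of the 15 largest rises carry only a locus code in the annotation used, and nothing is said of their function. AT1G52070 read 4.08 and 4.16 against 7.99 and 7.82 at 3 h, starting in the background range. AT5G65300 went from 5.72 and 5.91 to 9.61 and 9.42, and AT4G36010 from 7.73 and 7.65 to 11.04 and 11.17. The 3 loci show separate patterns outside this comparison, since Col at room temperature read 8.72 for the first, above C24 at 3 h, but 6.13 and 7.82 for the others. Of the 15 leading rises, 11 were lower in C24 than in Col at room temperature, as were 23.4% of all probe sets, and 9 were higher at 3 h than in Col, as were 26% of all. These genes were chosen for low signals at room temperature and high signals at 3 h on the same C24 arrays, so nothing is read from the shares.

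Among the 15 largest falls, AT3G23880 led, with 9.63 and 9.81 at room temperature and 5.25 and 5.12 at 3 h, a fall by 4.53 (SE 0.08, adjusted p = 1.04e-10). AT1G23390 dropped from 11.67 and 11.50 to 7.50 and 7.25, and AT5G19120 from 10.96 and 11.06 to 7.34 and 7.49. All these loci are again known by code alone. The only leading fall with a symbol was ORA47, an ERF factor that activates jasmonate synthesis genes, at 7.83 and 7.53 against 4.81 and 4.84 (-2.86, SE 0.20, adjusted p = 4.51e-07). Of the 15 leading falls, 14 stood higher in C24 than in Col at room temperature (32.7% of all probe sets) and 11 were lower at 3 h than in Col (21.9% of all). Here too the choice of genes used the same C24 arrays, and nothing is read from the shares. ORA47 was among those that ended at the Col level, which was 4.83.

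Among genes with a symbol, the next rises after the wall enzymes were those of stress and defence proteins. M17, a glycine-rich LEA protein, went from 4.22 and 4.14 in the background range to 6.79 and 7.24, and OSM34, an osmotin of the PR-5 family, from 6.88 and 6.98 to 9.82 and 9.71. OSM34 at 3 h remained under its Col level of 11.23, and M17 passed its Col level of 4.1. On the falling side stood GIS, a zinc finger factor of trichome development (log2 change -2.01), AKINBETA1, a regulatory subunit of the energy-sensing kinase SnRK1 (-1.80), Fes1B, an Hsp70 exchange factor (-1.35), and AGL24, a MADS factor that promotes flowering (-1.45). These genes were picked after the values were seen. The falls named are not simply the largest: PDF1.2b (-2.40), WRKY22 (-1.79) and HIS1-3 (-1.63), among others, fell more than AGL24 and Fes1B.

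**Figure D3:**
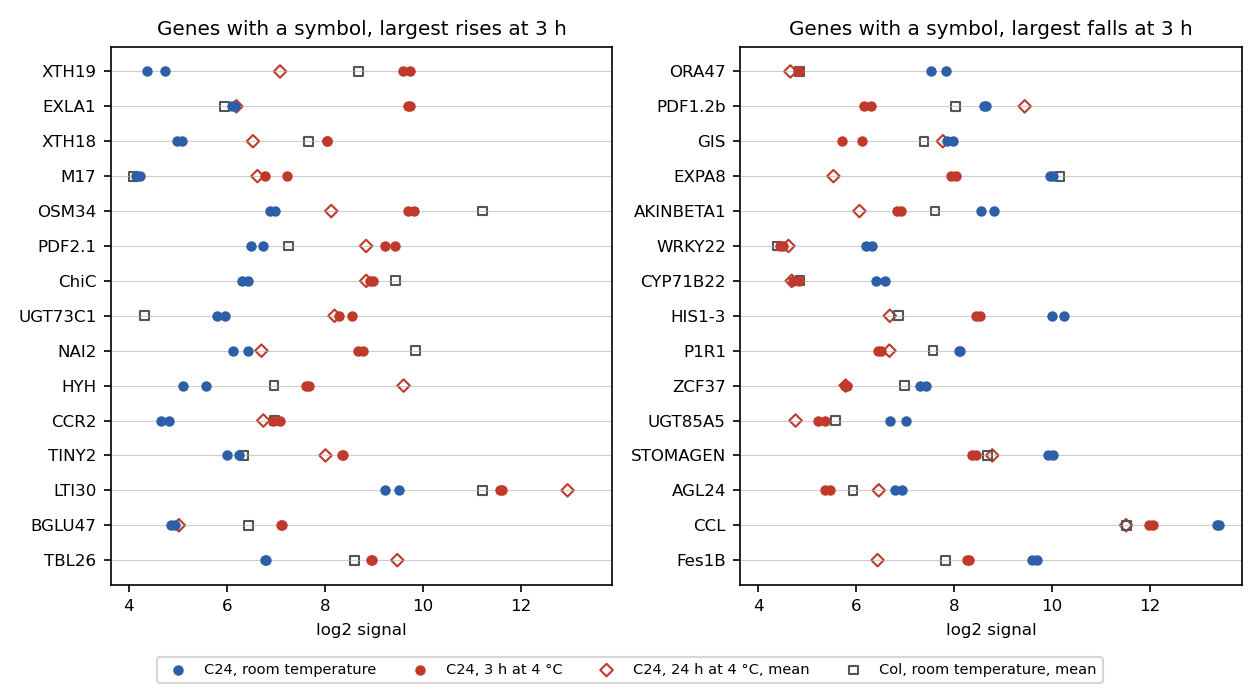
Log2 signal (x axis) of the 15 largest rises (left) and 15 largest falls (right) at 3 h among genes with a symbol. Filled points are single C24 arrays at room temperature (blue) and 3 h (red), and open symbols are the means of 2 arrays of C24 after 24 h of cold and Col at room temperature. XTH19 moves from at most 4.74 to at least 9.60, and ORA47 from at least 7.53 to the level of Col.

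The classical cold proteins were split at 3 h. Of 8 COR, LEA and dehydrin genes measured, 6 rose and 1 fell, against 22.5% and 23.2% of all probe sets, and the median change was 0.86. The LEA gene M17, described above, was not a member of this list. The same shares apply to the counts of every list below. For list counts against Col at room temperature, 23.4% of all probe sets were lower in C24 and 32.7% higher. LTI30, a dehydrin, read 9.51 and 9.23 at room temperature and 11.61 and 11.59 at 3 h (4.68-fold, log2 change 2.23, SE 0.09, adjusted p = 8.4e-09). COR47, another dehydrin, rose by 1.34, LEA18 by 1.70 from 4.73 and 4.63 to 6.17 and 6.59, and LEA4-5 by 1.47 from 5.2 and 5.27 to 6.59 and 6.81. In each of these the arrays of the groups did not overlap, and 5 of the 6 rises were also above Col at room temperature.

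COR15A and COR15B, small proteins that protect chloroplast membranes, did not take part in that rise. COR15A read 12.51 and 12.40 at room temperature and 12.17 and 12.20 at 3 h, a fall by 0.27 (adjusted p = 0.0138) that did not pass without the first array of either group (adjusted p = 0.1 and 0.0662). COR15B changed by 0.13 and was not called. The joint probe set of KIN1 and KIN2, small cold-induced proteins, read 12.31 and 12.20 against 12.08 and 12.04 (-0.19, adjusted p = 0.0436), and that call was lost in 11 of 19 alternatives, with adjusted p up to 0.234. At 24 h all were high: COR15A stood 1.67 and the shared KIN probe set 2.1 above room temperature. COR15A in C24 at room temperature was above its Col level of 11.51.

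Both clock-linked genes measured were higher in C24 than in Col at room temperature, as were 32.7% of all probe sets. COR27, an evening gene induced by cold that feeds back on the clock, read 10.93 and 10.93 at room temperature and 10.90 and 10.88 at 3 h, with a change of -0.04 that was not called. In Col at room temperature it read only 3.83, in the range of background. GI, a clock protein with a role in freezing tolerance, rose by 0.35 from 9.60 and 9.57 to 9.97 and 9.90 (adjusted p = 0.00348), and its Col level was 8.20. At what hour of the day plants were collected is unknown here.

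The early regulators measured were few. STZ, a zinc finger repressor induced by cold and salt, rose from 9.35 and 9.32 to 9.98 and 10.18 (0.75, SE 0.09, adjusted p = 4.33e-05). SIZ1, a SUMO ligase that stabilises the cold regulator ICE1, fell by 0.30 from 7.96 and 7.92 to 7.64 and 7.64. All 3 genes of the list, with ORA47 as the last, were higher in C24 than in Col at room temperature (32.7% of all probe sets). STZ alone was beyond Col at 3 h in the direction of its change.

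**Figure D4:**
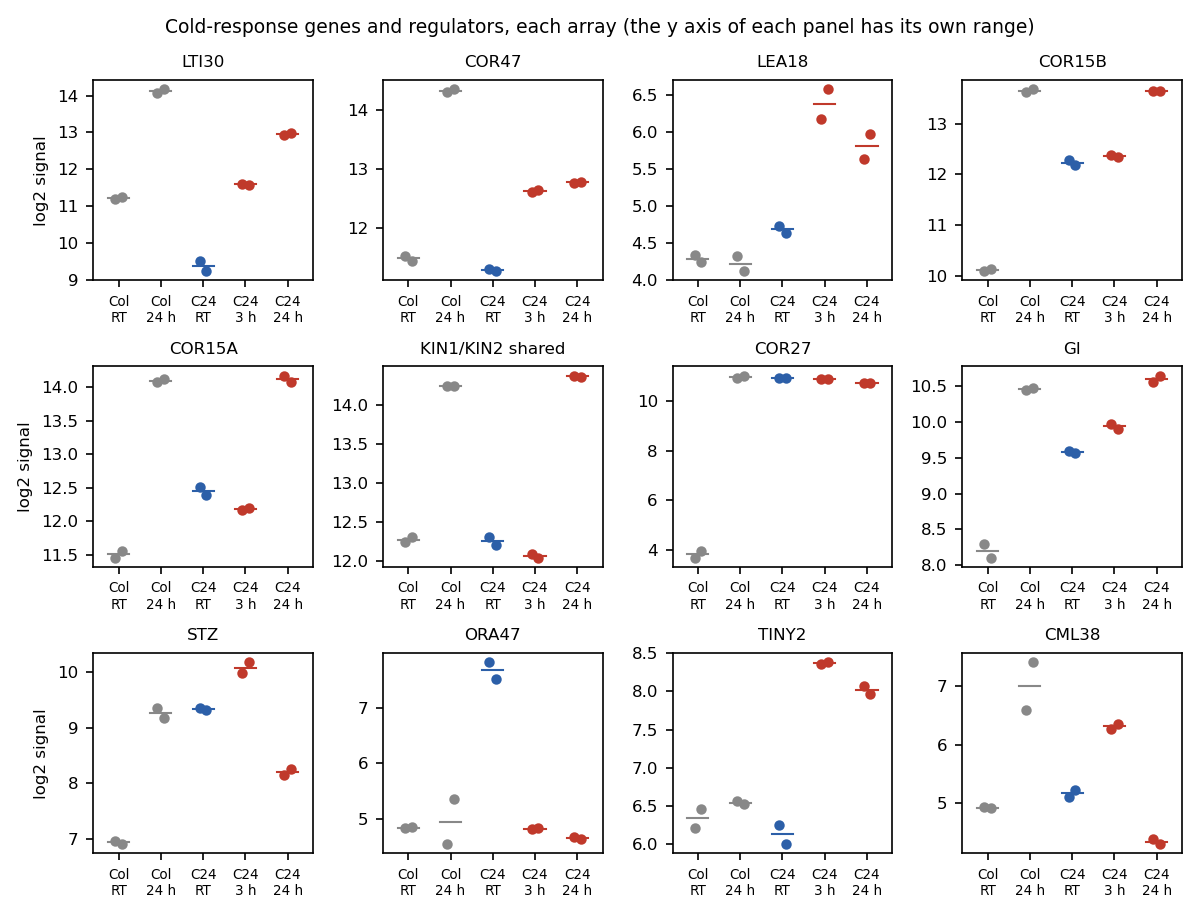
Log2 signal (y axis, a separate range in each panel) of 12 cold-response genes and regulators in the 5 groups (x axis), with a point per array and a line at the group mean. LTI30 climbs from 9.37 to 11.6 within 3 h in C24, COR15A reads 12.5 and 12.2 at room temperature and 3 h and 14.1 at 24 h, and COR27 is low in Col at room temperature alone.

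Among the AP2 and ERF factors, 3 of 5 rose (60%) and ORA47 fell (20%), against 22.5% and 23.2% of all probe sets. TINY2, a DREB-type factor, went from 6.26 and 6.0 to 8.35 and 8.38 (4.72-fold, log2 change 2.24, SE 0.10, adjusted p = 1.73e-08), and its relative TINY, listed as tny, from 5.95 and 6.02 to 7.14 and 7.30. Both ended above their Col levels of 6.34 and 6.71. LEP, an ERF factor of leaf shape, changed by only 0.25, and that call was lost in 12 of 20 alternatives (adjusted p up to 0.262). PUCHI stayed in the background range.

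WRKY factors, which carry defence and senescence signals, moved both ways. Of 6, 3 rose (50%) and 2 fell (33.3%), against 22.5% and 23.2% of all probe sets. WRKY6 rose by 1.29 from 5.91 and 5.73 to 7.14 and 7.08, and WRKY22, a factor of immune signalling, fell by 1.79 from 6.20 and 6.31 to 4.50 and 4.43, into the background range. WRKY53, of leaf senescence, fell by 0.67, also into the background range. WRKY47 changed by 0.27, a call lost in 4 of 20 alternatives. WRKY22 and WRKY53 both ended close to Col at room temperature (4.39 and 4.40). Those Col signals also lay below the lower quartile of their arrays, so the closeness is that of signals near the floor.

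The bZIP and bHLH lists, like every list named as drawn later, were made from gene symbols after values had been seen. In both lists 37.5% of members rose and 18.8% fell, against 22.5% and 23.2% of all probe sets. Of 16 bZIP genes 6 rose, all of them also beyond Col, and 3 fell (1 without the first room temperature array). HYH, a partner of HY5 in light signalling, read 5.58 and 5.11 against 7.61 and 7.68 at 3 h (4.94-fold, log2 change 2.3, SE 0.12, adjusted p = 5.95e-08). bZIP44 rose by 1.64 and BZIP34 by 1.2. Among 16 bHLH genes, many of them regulators of iron uptake, 6 rose, led by bHLH34 (1.16), and 3 fell, led by PYE, a repressor of the iron deficiency response (-1.1, from 7.22 and 7.28 to 6.28 and 6.01).

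Calcium and touch genes hardly stood out, with 2 of 14 higher and 3 lower, both shares under those of all probe sets, and the rises were 1 without the first room temperature array or either 3 h array. CML38, a calmodulin-like protein induced by wounding and low oxygen, rose by 1.15 from 5.11 and 5.22 to 6.28 and 6.36. CML30, another calmodulin-like gene, fell by 0.80 from 7.72 and 7.54 to 6.88 and 6.77. Of the glutamate receptor-like channels, GLR1.4 fell by 0.69, while the calls of GLR3.3 (0.31) and GLR2.8 (-0.27, in the background range) were lost without single arrays (adjusted p up to 0.18 and 0.0792).

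Hormone genes showed no common direction. In the jasmonate list 3 of 7 rose and 2 fell: OPCL1, which activates a jasmonate precursor, rose by 1.1 from 8.36 and 8.64 to 9.60 and 9.60, and PDF1.2, a defensin induced by jasmonate and ethylene, fell by 0.67 from 6.21 and 6.66 to 5.84 and 5.70. JMT, which methylates jasmonate, was called at 0.39 within the background range and lost its call without the second array of either group (adjusted p = 0.0983 and 0.088). Both ethylene genes measured fell, EIN3, the master factor of the pathway, by 0.35 and RTE1, a regulator of its receptor ETR1, by 0.63. Only RTE1 ended below Col.

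Auxin genes split within 1 enzyme family. The GH3 enzymes conjugate auxin to amino acids: GH3.17 rose by 1.40 from 6.17 and 6.06 to 7.52 and 7.51, GH3.3 by 0.92 and GH3.9 by 0.82, whereas WES1, also a GH3 enzyme, fell by 0.59. YUC2, an auxin synthesis enzyme, fell by 0.50 and IAA29, a repressor of auxin signalling, by 0.59. In all, 3 of 14 auxin genes rose (21.4%) and 4 fell (28.6%), near the shares of all probe sets (22.5% and 23.2%). Among 6 cytokinin response regulators ARR15 alone was called (0.61), though 1 other was called lower without the first 3 h array, and among 4 gibberellin and brassinosteroid genes GID1B, a gibberellin receptor, alone (0.50). GID1A (-0.18, adjusted p = 0.0812) and BRL1 (0.35, adjusted p = 0.0524) missed the threshold, BRL1 in the background range, although BRL1 passed without the first 3 h array (adjusted p = 0.0198).

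Among genes with a symbol the cell wall gave the 3 largest rises, those of XTH19, EXLA1 and XTH18. Of 27 xyloglucan transferases and expansins 15 rose (55.6%) and 2 fell (7.41%), against 22.5% and 23.2% of all probe sets. Their median was 0.29. XTH18, a close relative of XTH19, went from 4.99 and 5.09 to 8.05 and 8.04 (8.05-fold, log2 change 3.01, SE 0.10, adjusted p = 1.94e-09), XTH20 rose by 1.77, XTH33 by 1.44 and EXLA2 by 1.42. Closely related XTH genes can share hybridisation, so their values may not be independent. EXPA8, an expansin, fell by 2.00 from 10.01 and 9.95 to 8.03 and 7.93, and EXLB1 fell by 1.09 from 9.46 and 9.27 to 8.26 and 8.29.

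Of the 27 wall genes, 17 were lower in C24 than in Col at room temperature, against 23.4% of all probe sets. Only 7 of the 15 rises were also above Col. The count of rises was 11 to 14 when 1 of the 4 arrays was left out. EXPA7 and EXPA18, the root hair expansins above, are members of this list. Both were called, EXPA7 not without the first room temperature or the second 3 h array. In the wall acetylation list, drawn later, 7 of 22 TBL genes rose and 5 fell (3 without the second room temperature array or either 3 h array), with TBL26 at 6.79 and 6.80 against 8.94 and 8.96 (2.15) and TBL32 at -0.58. The TBL shares were 31.8% and 22.7%, with 22.5% and 23.2% among all probe sets. Of 15 family 9 endoglucanases, also drawn later, 3 rose (20%), led by GH9B8 (1.14) and GH9C1 (1.08). GH9B12 was called lower at -0.39, but not without the first room temperature array or either 3 h array (adjusted p = 0.164, 0.055 and 0.0796). GH9B8 and GH9C1 remained under their Col levels of 8.13 and 6.97.

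The lignin branch, drawn later, had 6 of 12 genes higher (50%) and none called lower, against 22.5% and 23.2% of all probe sets. CCR2, a cinnamoyl-CoA reductase, went from 4.81 and 4.67 to 6.95 and 7.09 (4.85-fold, log2 change 2.28, SE 0.09, adjusted p = 5.06e-09), to its Col level of 6.97. UGT72E1 and UGT72E2, which glucosylate lignin monomers, rose by 1.91 and 1.9 from 6.76 and 6.88 and from 6.18 and 6.10. Only 1 of the 6 rises was above Col, and without the second room temperature array 2 members were called lower.

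Flavonoid genes had begun to move. Of 10 measured, 5 rose (50%) and none was called lower, against 22.5% and 23.2% of all probe sets. Their median was 0.27 at 3 h and 1.88 at 24 h. CHIL, a chalcone isomerase-like protein, rose from 7.74 and 7.82 to 8.64 and 8.79 (0.93, SE 0.08, adjusted p = 3.34e-06), and UGT78D2, which glucosylates flavonols and anthocyanins, from 8.44 and 8.44 to 9.60 and 9.66 (1.19). DFR, the reductase that leads to anthocyanins, rose by 0.36 and AT5MAT, an anthocyanin acyltransferase, by 0.83. HYH is the remaining riser of the list. In C24 at room temperature 8 of the 10 lay below Col (23.4% of all probe sets), and of the risers only HYH was above it at 3 h.

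Redox enzymes moved both ways. The methionine sulfoxide reductases MSRB9 and MSRB5, which repair oxidised proteins, rose by 2.13 (5.91 and 5.97 to 8.20 and 7.95) and by 1.62 (8.93 and 8.80 to 10.51 and 10.45). GR1, a glutathione reductase, rose by 1.23 from 9.31 and 9.46 to 10.67 and 10.57. TAPX, the ascorbate peroxidase of thylakoids, fell by 1.11 from 10.48 and 10.50 to 9.37 and 9.38, and PRXR1, a peroxidase, by 0.33. In the whole list 6 of 11 rose (54.5%) and 2 fell (18.2%), against 22.5% and 23.2% of all probe sets. Above Col was 1 of the rises.

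Conjugating enzymes rose more often than they fell. Among glutathione transferases 64.3% rose and 7.14% fell, against 22.5% and 23.2% of all probe sets. Of 14 glutathione transferases 9 rose and 1 fell, with a median of 0.31, and the rises numbered 6 to 8 when 1 of the 4 arrays was left out. GSTU22 read 5.44 and 5.28 against 7.25 and 7.13 (1.83, SE 0.10, adjusted p = 5.2e-08), GSTU26 8.22 and 8.24 against 9.59 and 9.56 (1.35), and GSTU18 fell by 0.68. GSTU26 ended above its Col level of 7.76 and GSTU22 below its own of 8.68.

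UDP-glycosyltransferases, which attach sugars to hormones and secondary metabolites, had 19 of 47 higher (40.4%, against 22.5% of all probe sets) and 7 lower (14.9%, against 23.2%). The falls were 4 without the second 3 h array. UGT73C1 went from 5.97 and 5.80 to 8.30 and 8.55 (5.81-fold, log2 change 2.54, SE 0.15, adjusted p = 1.64e-07), beyond its Col level of 4.32. UGT76B1, which glucosylates the defence signal isoleucic acid, rose by 1.93 from 4.41 and 3.72 in the background range to 6.10 and 5.88, under its Col level of 8.63. UGT85A5 fell by 1.56. In the list of cytochrome P450 genes 6 of 23 rose and 5 fell, near the share of all probe sets (3 falls without the first 3 h array), with CYP71B26 at 1.13 and CYP71B22 at -1.72.

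Sugar transporters rose more often than they fell. Of 15 SWEET transporters, which let sugars leave cells or vacuoles and whose list was drawn later, 9 rose and 2 fell, with a median of 0.51. These shares were 60% and 13.3%, against 22.5% and 23.2% of all probe sets. SWEET1 read 8.18 and 8.09 at room temperature and 9.89 and 9.74 at 3 h (3.21-fold, log2 change 1.68, SE 0.08, adjusted p = 1.91e-08). SAG29, also known as SWEET15 and marked by senescence, rose by 1.67 from 7.38 and 7.43 to 9.16 and 8.98, SWEET13 by 1.51, and the vacuolar SWEET16 and SWEET17 by 1.11 and 0.73. SWEET4 fell by 0.78 from 8.27 and 8.17 to 7.45 and 7.42. The fall of SWEET3 (-0.22) was lost in 13 of 20 alternatives, with adjusted p up to 0.179, and 4 of the 9 rises were above Col.

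The few starch genes measured went both ways. APL4, a subunit of the enzyme that commits sugar to starch, rose by 1.44 from 6.49 and 6.47 to 7.90 and 7.94. PWD, which phosphorylates starch for degradation, fell by 1.29 from 11.32 and 11.32 to 10.01 and 10.06, and DPE1, which recycles maltotriose, by 1.19 from 10.48 and 10.51 to 9.35 and 9.26. PWD and DPE1 remained well above their Col levels of 8.87 and 8.61. In the list that joins these genes with SWEETs 9 of 20 rose and 5 fell (3 without the first room temperature or the second 3 h array).

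Carbon starvation genes leaned to falls, called in 62.5% of their list against 23.2% of all probe sets. Of 8 starvation-marker and branched-chain amino acid genes none was called higher and 5 fell, with a median of -0.33 that reached -1.22 at 24 h. AKINBETA1 dropped from 8.81 and 8.55 to 6.91 and 6.83 (-1.80, SE 0.09, adjusted p = 4.13e-08), D2HGDH, a mitochondrial dehydrogenase that feeds electrons from lysine breakdown, from 7.97 and 8.03 to 7.31 and 7.25 (-0.73), and ETFBETA, which carries those electrons, by 0.69. Calls also below Col numbered 2.

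Autophagy genes divided within the ATG8 family, the small proteins that coat autophagosomes. Over the whole list 18.2% rose and 45.5% fell, against 22.5% and 23.2% of all probe sets. ATG8E fell by 1.01 from 8.68 and 8.54 to 7.71 and 7.49 and ATG8F by 0.52 from 10.90 and 10.78 to 10.28 and 10.36. ATG8C (-0.32) fell and ATG8B (0.23) and APG8A (0.29) rose by small amounts, and all 3 calls were lost when single arrays were left out (adjusted p up to 0.174, 0.154 and 0.16). The counts of 2 of 11 higher and 5 lower became 0 to 1 and 2 to 4 without 1 of the 4 arrays.

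Ribosome production genes rose in 5 of 9 cases (55.6%) and none was called lower, against 22.5% and 23.2% of all probe sets. YAO and RBL, nucleolar proteins of ribosomal RNA maturation, rose by 0.67 from 7.33 and 7.31 to 7.98 and 8.0 and by 0.69 from 7.44 and 7.38 to 8.11 and 8.08. NRPC1, the large subunit of RNA polymerase III, rose by 1.68 from 5.23 and 5.43 to 7.03 and 6.99. The median was 0.31 at 3 h and 1.43 at 24 h, and 4 of the 5 rises were above Col. NRPC1 departed from the others, since at 24 h it read 5.02, below room temperature.

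Of 5 heat shock and chaperone genes 2 were called higher (1 without either room temperature array or the second 3 h array) and none lower, with a median of -0.03. BOB1, a small chaperone, rose by 0.50 from 8.19 and 8.11 to 8.64 and 8.66, and Hsp70-2 changed by -0.05 (adjusted p = 0.736). AT5G48570 was called at 0.31 in the background range, and that call was lost in 8 of 19 alternatives (adjusted p up to 0.304). Of 9 histone and cell division genes 3 rose and 1 fell. The fall was that of HIS1-3, a linker histone induced by drought, from 10.24 and 9.99 to 8.52 and 8.44 (-1.63, SE 0.09, adjusted p = 7.16e-08). Among 9 tubulins and actins, drawn later, 5 rose, led by ACT11 (1.43, from 6.10 and 5.97 to 7.48 and 7.45), and TUB6 fell by 0.36.

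Photosynthesis genes fell by small steps. In the nuclear list 47.6% fell and 4.76% rose, against 23.2% and 22.5% of all probe sets. Higher in C24 than in Col at room temperature were 32.7% of all probe sets. Of 21 nuclear genes 10 fell and 1 rose, with a median of -0.16, and the falls numbered 6 to 7 when 1 of the 4 arrays was left out. The larger falls were in tetrapyrrole synthesis: HEME2, a uroporphyrinogen decarboxylase, went from 10.98 and 11.06 to 10.40 and 10.54 (-0.55, SE 0.08, adjusted p = 0.000137), PORB, a protochlorophyllide reductase, from 12.65 and 12.60 to 12.10 and 12.06 (-0.55), and CHLI2, a subunit of magnesium chelatase, from 10.04 and 9.93 to 9.43 and 9.59 (-0.48). LHCB4.3, an antenna protein, rose by 0.43. The antenna and photosystem genes LHCB4.1 (-0.24) and PSAN (-0.20) lost their calls without single arrays (adjusted p up to 0.0766 and 0.137), and 12 of the 21 genes were higher in C24 than in Col at room temperature.

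The chloroplast NDH complex cycles electrons around photosystem I, and most of the nuclear genes listed for it were lower. Plastid-encoded genes were left to the list below. Of 9 genes for its subunits, assembly and RNA editing, a list drawn later, 8 fell (88.9%, against 23.2% of all probe sets). The median was -0.71, and -0.75 to -0.65 when 1 of the 4 arrays was left out. CRR22, an RNA editing factor, read 6.55 and 6.65 against 5.42 and 5.40 (-1.19, SE 0.09, adjusted p = 9.56e-07), CRR42, an assembly factor, 9.68 and 9.49 against 8.57 and 8.50 (-1.05), and NdhS, the ferredoxin-binding subunit, 11.55 and 11.51 against 10.69 and 10.72 (-0.83). For all 3 the 3 h arrays lay below the room temperature arrays without overlap. All 9 genes were higher in C24 than in Col at room temperature (32.7% of all probe sets), and 1 of the 8 falls passed below Col.

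Of 69 plastid-encoded genes 14 fell and 1 rose, and the share of falls (20.3%) lay below that of all probe sets (23.2%): psaJ went from 11.44 and 11.46 to 10.17 and 10.34 (-1.2) and rpl33 from 11.90 and 12.01 to 11.09 and 11.05 (-0.89). The riser, rps16, read 6.15 and 7.43 at room temperature, a wide spread, and 8.66 and 8.79 at 3 h. The list's falls numbered 9 to 16 and its median -0.47 to 0.09 without 1 of the 4 arrays, and its rises were 3 without the second room temperature array. Among 15 mitochondria-encoded genes, drawn later, 6 fell (40%, against 23.2% of all probe sets) and none was called higher with all arrays kept. The changes of nad9 and nad1 were -0.81 and -0.69. At room temperature 13 of the 15 were higher in C24 than in Col, as were 32.7% of all probe sets.

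Stomatal genes, drawn later, fell in 3 of 4 cases. STOMAGEN, a peptide that promotes stomata and is made in the mesophyll, went from 9.91 and 10.01 to 8.44 and 8.36 (-1.56, SE 0.09, adjusted p = 1.02e-07), FMA, the factor of guard cell fate, from 7.70 and 7.52 to 6.30 and 6.59 (-1.17), and MUTE, which acts before it, from 4.87 and 4.97 to 4.45 and 4.07 (-0.66), into the background range. SPCH, which starts the lineage, changed by 0.05. STOMAGEN, FMA and MUTE had Col levels of 8.68, 6.65 and 4.27, and 1 of the 3 falls was beyond Col.

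ER-body genes rose together, with 76.9% of their list called higher against 22.5% of all probe sets. ER bodies are endoplasmic reticulum compartments that store beta-glucosidases against herbivores, in seedlings and roots, and in this list with glucosinolate genes 10 of 13 rose and none was called lower, with a median of 0.85. NAI2, which builds the bodies, read 6.12 and 6.44 at room temperature and 8.77 and 8.68 at 3 h (5.44-fold, log2 change 2.44, SE 0.10, adjusted p = 9.25e-09), NAI1, the bHLH factor that drives them, 6.19 and 5.93 against 6.89 and 6.94 (0.85), and the lectin JAL33 9.65 and 9.68 against 11.44 and 11.40 (1.76). PYK10, the main enzyme of the bodies and the leading root marker above, read 10.60 and 10.62 against 12.52 and 12.54 (1.92). Of the 13 genes 8 were lower in C24 than in Col at room temperature (23.4% of all probe sets), and 3 of the 10 rises were above Col. At 24 h the median was -0.11.

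Defence peptides, drawn later, had 8 of 20 higher (40%) and 2 lower (10%), against 22.5% and 23.2% of all probe sets. PDF2.1, a defensin, rose by 2.71 from 6.74 and 6.49 to 9.43 and 9.23, past its Col level of 7.26, and ChiC, a chitinase, by 2.59 from 6.31 and 6.43 to 8.98 and 8.93. PDF1.2b fell by 2.4 from 8.64 and 8.60 to 6.29 and 6.15, below its Col level of 8.02. PDF1.2b is, with PDF1.2, a defensin of the jasmonate and ethylene branch. Its probe set is of a type that can share hybridisation with related sequences, so its value may not be independent of PDF1.2.

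Immune signalling genes were mixed, with 3 of 6 higher and 1 lower. The U-box ligases PUB22, PUB23 and PUB24 dampen immune signalling: PUB23 rose by 0.83 from 5.92 and 5.94 to 6.82 and 6.69, PUB24 fell by 1.14 from 5.89 and 6.10 to 4.87 and 4.83, and PUB22 changed by 0.45, a call lost without the second room temperature array or the first 3 h array (adjusted p = 0.0737 and 0.0866). BIK1, a kinase below immune receptors, rose by 0.44. PUB25 and PUB26, paralogues that act on the cold regulator MYB15, went apart, at 1.16 and -0.44.

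The remaining lists had calls in both directions. Tetraspanins (20% and 20%) and RALF peptides (27.3% and 18.2%) lay near the shares of all probe sets, 22.5% higher and 23.2% lower. The shares were 36.4% and 18.2% for beta-glucosidases, and 15.9% and 11.4% for MADS and flowering genes. Of 22 beta-glucosidases 8 rose and 4 fell (2 without either room temperature array or the second 3 h array), of 44 MADS and flowering genes 7 and 5 (29 of them in the background range), of 15 tetraspanins 3 and 3 (5 falls without the first room temperature array) and of 11 RALF peptides 3 and 2 (1 fall without the first room temperature array or either 3 h array). Single members still moved: BGLU47 rose by 2.22 from 4.86 and 4.93 to 7.11 and 7.12, and SMZ, a repressor of flowering, by 1.40 from 6.11 and 5.93 to 7.45 and 7.39. NDB2, an external NADH dehydrogenase of mitochondria, rose by 1.29. Among 2 MYB genes AT5G47390 fell by 0.70, and the 1 NAC gene, NAC014, was called at 0.31 but not without 3 of the single arrays.

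**Figure D5:**
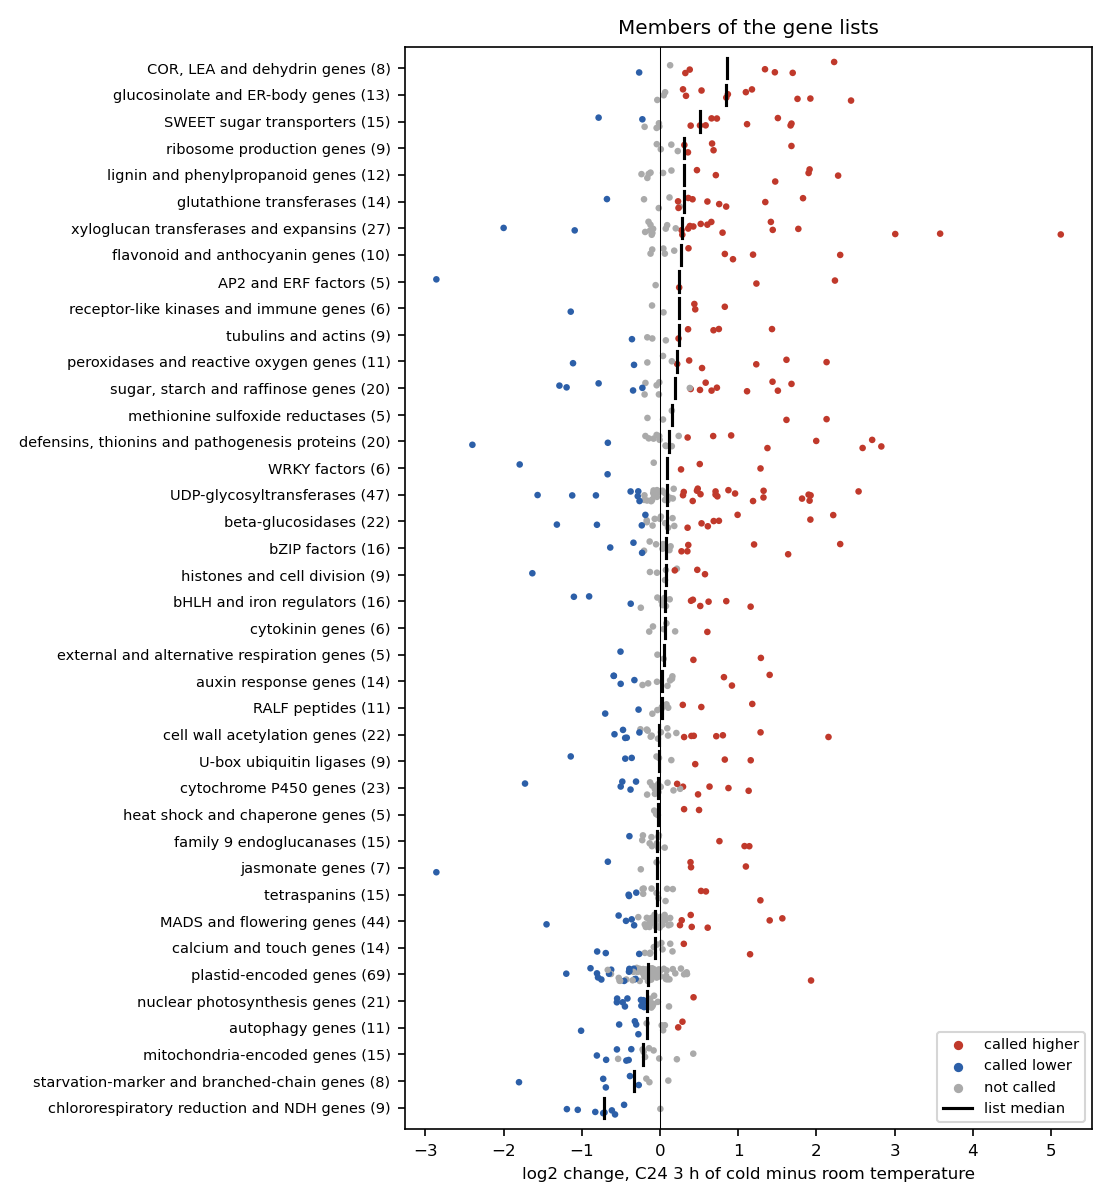
Log2 change from room temperature to 3 h of cold in C24 (x axis) for each member of the lists with at least 5 measured genes (y axis, number of genes in brackets), ordered by the median (black bar). Red points were called higher, blue lower and grey not called. The medians run from 0.86 for the COR, LEA and dehydrin genes to -0.71 for the NDH list.

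The level at 3 h was set against that at 24 h, a comparison that does not use the room temperature arrays but shares the 3 h arrays by which the leading genes were chosen. Over all probe sets 10073 differed (44.3%), 4946 higher at 24 h (21.7%) and 5127 lower (22.5%). Of the 15 leading rises at 3 h, 14 were lower at 24 h, and of the 15 leading falls 7 were higher at 24 h, 5 were lower still and 3 did not differ beyond the threshold. EXLA1 read 6.20 at 24 h, not called different from room temperature (6.14), after its 12-fold rise. XTH19 fell back by 2.59 to 7.09.

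In the other direction, LTI30 climbed by a further 1.36, HYH by 1.96, CHIL by 2.66 and COR15A by 1.93 between 3 h and 24 h. TINY2 was nearly held, at 8.02. GIS returned from 5.91 at 3 h to 7.77 at 24 h, not called different from its room temperature mean of 7.92. With 2 time points in cold, the hour at which any of these genes peaked is not known.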

How the data were processed

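Transcript levels were measured with 10 Affymetrix ATH1 arrays, 2 per group. The authors deposited RMA signals in log2 units, with GCOS named beside RMA in the submitters' processing notes and no version of either. RMA corrects background, normalises quantiles and summarises probe sets. Groups came from the sample titles.

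Of 22810 probe sets 64 controls were left out. A linear model of the 5 groups was fitted to the log2 signals of all arrays together (limma 3.58.1, lmFit and eBayes, R 4.3.3), and p-values were adjusted by Benjamini-Hochberg over 22746 probe sets. A call is an adjusted p below 0.05. The script was tested on simulated data. Same-numbered replicates did not deviate together (correlations between -0.12 and 0.12), so the numbers were not taken to pair the arrays.

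A gene was named where the platform annotation gives exactly 1 gene (13513 probe sets, 13356 genes, of which 1557 have a symbol beyond the locus code). RefSeq locus tags matched 13436 of these probe sets. Named are the 15 largest rises and 15 largest falls with arrays that do not overlap, up to 3 called rises and 3 called falls of each list, every measured member of a list of at most 6, and the tissue markers. Other genes named were chosen after their values were seen. In a list, the probe set with the highest mean stood for its gene. Members and lists were chosen with earlier results of these data known: 31 lists, of which 29 had a measured member, and 18 drawn later from the annotation's symbols. Symbols shared with another gene were removed from the lists.

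Alternatives were a second quantile normalisation, median centring, a replicate block, a robust prior with intensity trend, removal of dim probe sets, 1 probe set per gene, fits to 4 or 6 arrays, a 2-fold threshold, a call required against Col as well, and each array left out. Promoter sequences were not used here.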

Additional observations from a re-analysis of the deposited data

Results flagged for a closer look

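The response of C24 at 24 h differed from that at 3 h, by the test of 24 h against 3 h in the same limma fit, for 26 of the leading genes and for 22 named list genes whose change from room temperature had opposite signs at both times considered and whose call at 3 h held in the main test. Over all probe sets 44.3% differed in this test, which shares the 3 h arrays by which the leading genes were chosen. Only the leading genes and list genes of opposite sign were screened. Groups of 2 arrays are too small to be screened for single outlying arrays. Each value below is the log2 level at 24 h minus that at 3 h.

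Among the leading rises at 3 h, 14 were lower at 24 h, namely XTH19 (-2.59), AT1G52070 (-1.87), AT4G30170 (-1.13), AT5G65300 (-3.08), EXLA1 (-3.52), AT1G49220 (-2.41), AT4G11190 (-2.16), AT4G36010 (-1.04), AT3G26460 (-2.17), AT1G17960 (-3.37), AT5G05600 (-2.75), AT5G17820 (-0.86), AT5G20790 (-1.02) and AT5G48540 (-0.64). The largest of these differences was that of EXLA1, which read 6.20 at 24 h and 6.14 at room temperature. AT1G17960 likewise stood at its room temperature level at 24 h, with a change of -0.02.

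Among the leading falls, 7 were higher again at 24 h, namely AT3G23880 (0.77), AT3G26510 (0.28), AT1G78450 (0.44), AT1G31690 (2.61), AT3G56360 (1.27), AT1G14200 (0.62) and AT5G03350 (2.1). A further 5 were lower still, namely AT1G23390 (-0.42), AT5G19120 (-1.47), AT2G05160 (-0.56), AT2G38820 (-0.38) and AT3G15630 (-1.44). AT1G31690 and AT5G03350 recovered most of their fall by 24 h, with changes from room temperature of -0.54 and -0.42.

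Among list genes, 13 were higher at 3 h and below room temperature at 24 h, namely STZ (-1.88), CML38 (-1.98), GH3.9 (-1.71), WRKY47 (-0.48), GSTU23 (-1.15), CYP71B36 (-1.53), NRPC1 (-1.99), LHCB4.3 (-1.32), JAL33 (-1.98), AUR1 (-0.76), BZIP34 (-1.67), RALFL33 (-1.22) and TUB1 (-1.01). The reverse order was found for 9, namely COR15A (1.93), PDF1.2 (1.63), IAA29 (1.13), SWEET4 (1.1), PDF1.2b (3.22), PUB19 (1.03), TBL45 (0.96), NDB1 (0.88) and the joint KIN1 and KIN2 probe set (2.3). The cold proteins of the latter group, COR15A and the KIN pair, rose by 1.67 and 2.1 above room temperature at 24 h. The falls of COR15A and of the KIN pair at 3 h, and the rises of WRKY47 and AUR1, were lost in some alternatives, and for WRKY47, GSTU23, NRPC1, JAL33, TUB1, SWEET4 and NDB1 the change from room temperature at 24 h was only -0.31 to 0.37 on the log2 scale. The cause of these differences was not tested.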

How the results depend on the processing

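The main test called 10390 probe sets, 5120 higher and 5270 lower. With 1 probe set per gene it called 5431 (2550 higher and 2881 lower, 485 and 309 at least 2-fold). That setting tested 13356 probe sets, against 22746 in the main test. In that setting 5290 differed between 24 h and 3 h (10073 in the main test) and 5914 between 3 h and Col at room temperature (10893). Median centring gave 4751 higher and 6034 lower, and a second quantile normalisation 4912 and 5624, so the near-even split depends on the normalisation. The 2-fold threshold left 1617. A call required against Col as well left 4142 (2408 higher, 1734 lower, 535 and 289 at least 2-fold). Leaving out each array gave 8659 to 10521 calls at 3 h, 8360 to 10242 between 24 h and 3 h and 9007 to 11069 against Col. Without 1 array of a group, the lone array is assumed to vary like the others.

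With a replicate block 10311 probe sets were called, and with a crossed pairing, added after the data were seen, 10285. The replicate block ended the calls of AT5G48570, AUR1, petG, SWEET3 and the KIN probe set, and BRL1 passed under it. In the pairing check same-numbered replicates did not deviate together, so the numbers were not taken to pair the arrays. Whether same-numbered arrays were handled together is not known.

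Of 43 lists with at least 3 measured genes, most members rose in 9 and most fell in 4. With a call required against Col as well these were 1 and 0. They were 6 and 4 after a second quantile normalisation, 6 and 6 after median centring, and 13 and 5 with dim probe sets left out. Leaving out each array gave 5 to 9 and 3 to 4, the 5 without the first C24 room temperature array. Of 234 named results 207 were called, 24 of those lost the call in at least 1 other alternative, and 93 were also called against Col. No named result reversed. Promoter motif counts were not run. Signals in the background range were not shown to be detected.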

Other observations

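The change with the largest size among falls belonged to a probe set with no single named gene, at -5.03 on the log2 scale. Of the probe sets changed at least 2-fold, 485 rises and 312 falls had exactly 1 gene, of 1034 and 583, so that the other large changes are not named here.

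The 3' minus 5' log2 signal of the GAPDH control, a measure of RNA integrity, was 0.493 and 0.864 for C24 at room temperature and 0.568 and 0.415 at 3 h, ranges that overlap. The Col arrays at room temperature gave 0.314 and 0.0947. The part of RNA quality in the differences from Col was not tested, nor was that of the poly-A control signal, which differed by ecotype.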
